A study of Mus musculus with 6 samples.

Results

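The genes described here are 8 genes of the early neural crest and of its glial and autonomic lineages, measured in outflow tract tissue of the mouse embryo. They comprise 5 transcription factor genes (Sox10, Foxd3, Tfap2a, Tfap2b and Pax3) and 3 receptor genes (Erbb3, Ngfr and Ret). The genes were listed by their known roles, and all 19 probe sets annotated to only one of them were taken, out of 45037 probe sets other than controls. The outflow tract, the tube by which blood leaves the heart, was cut from hearts of CD1 mice at embryonic day 10.5, and its superior and inferior subdomains were collected separately. Pieces from littermates were pooled, and total RNA was hybridised to Affymetrix Mouse Genome 430 2.0 arrays, with 3 superior and 3 inferior pools numbered 1, 6 and 7 in each region. The sample labels give 6 embryos per pool and the design text 7 dissected samples, a difference that the sources used here do not settle. They also differ on RNA extraction, given as Trizol with a column or as a column kit alone, and this is not settled either. No genotype, treatment or transgene is given for any sample. Whether the pools stem from separate litters is not stated, so p-values measure only the spread between these pools.

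Neural crest cells leave the dorsal neural tube, and the cardiac crest migrates through the pharyngeal arches into the outflow tract, where it helps to build the septum between aorta and pulmonary trunk. Foxd3, Tfap2a, Tfap2b and Pax3 act early, when crest is induced and starts to migrate. Sox10 keeps migrating crest multipotent and is later required for glia and melanocytes, while Erbb3, Ngfr and Ret are receptors by which crest cells and their glial and autonomic derivatives read neuregulins, neurotrophins and GDNF family ligands. In tissue pieces, fewer cells of a type and less RNA per cell cannot be told apart.

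The values are MAS5 signals, on a linear scale relative to the rest of each array. A signal above 8.0, the highest signal of 27 Bacillus control probe sets with no target in the sample, is called above background here. Signals of different probe sets are not compared with each other, because each has its own affinity. The summed signals of gene lists given below are therefore weighted towards their brightest probe sets, and are compared only between arrays. The median signal ranged from 13.9 to 16.1 over the superior arrays and from 14.8 to 17.6 over the inferior ones. The arrays of pool 1 stood apart from the others in the control probe sets for 18S ribosomal RNA, with mean signals of 77.6 in the superior and 67.8 in the inferior array, against 439 to 690 in the other 4. The ratio of 5′ to 3′ signal of the Gapdh control probe sets, a sign of RNA integrity, was 0.769 on the superior 1 and 0.452 on the inferior 1 array, against 1.11 to 1.20 on the other 4. The same ratio for actin was 0.449 on the superior 1 and 0.443 on the inferior 1 array. It was 0.534 and 0.616 on the superior 6 and 7 arrays, against 0.672 and 0.688 on the inferior 6 and 7 arrays. The hybridisation controls of the superior 6 array were 1.63 times those of the median array.

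Detection differed between the 8 genes. Over all probe sets other than controls, 58.4% (superior 1) to 63.1% (inferior 7) were above background on an array. The gene counts below take all arrays and any probe set of a gene, so they are not the same measure as this share. Of the 8 genes, 4 had a probe set above background on all 6 arrays (Sox10, Tfap2a, Erbb3 and Ngfr). Pax3 was above background on 4 arrays by its brightest probe set. Foxd3, Tfap2b and Ret lay under the background level on every array with every probe set. Only probe sets brighter on average than the median probe set, a signal of about 15.1, entered the tests, and 6 of the 19 member probe sets did. The Pax3 probe set 1420389_at lay just inside this limit, with a geometric mean signal of 15.6, and the Sox10 probe set 1451689_a_at just outside it, with 13.9.

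**Figure D1:**
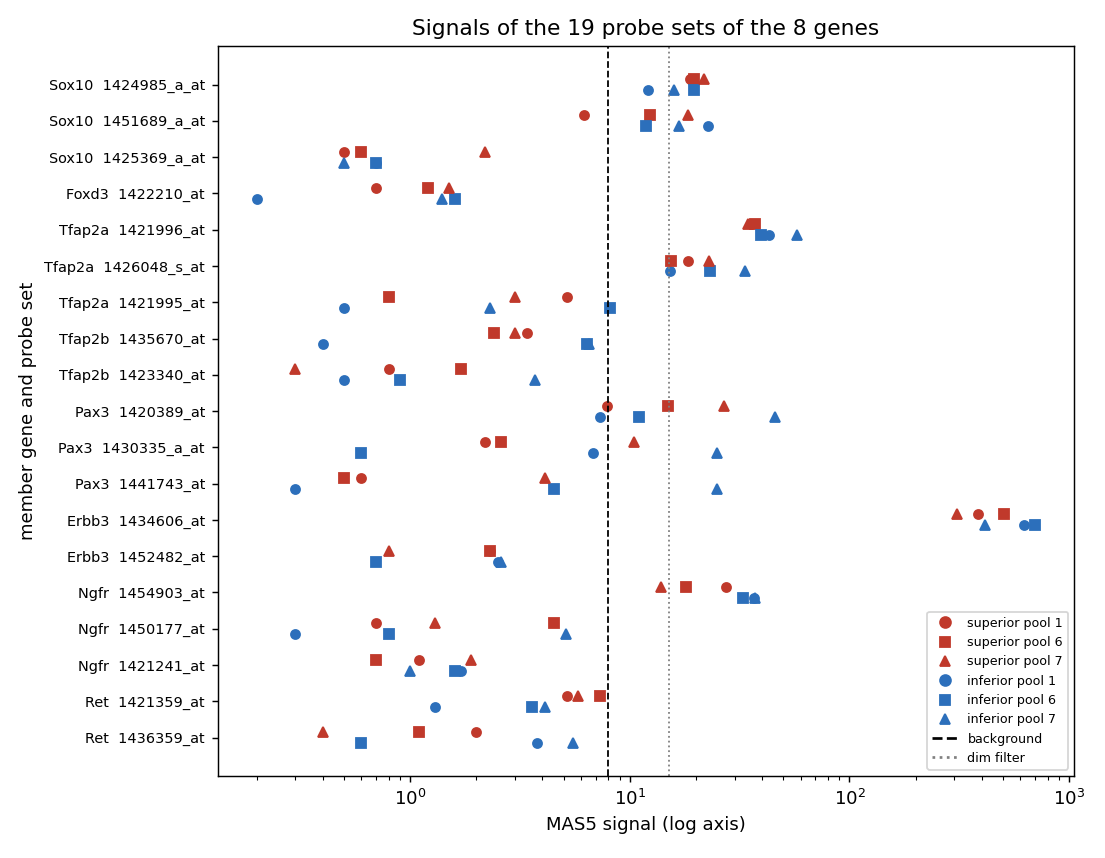
MAS5 signals on a log axis of the 19 probe sets of the 8 genes, with a point for each of the 6 arrays (red superior, blue inferior, marker shape for the pool number), the background level of 8.0 (dashed) and the dim filter at 15.1 (dotted). The brightest Erbb3 probe set lies between 309.9 and 702.8, whereas all probe sets of Foxd3, Tfap2b and Ret lie left of the background line.

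In the comparison of superior with inferior pools, no member probe set passed the test at an adjusted p threshold of 0.05, with or without the pool number in the fit. The share of all tested probe sets called was 0% without it and 0.160% with it. Erbb3 and Ngfr, the latter by a dim probe set, gave the clearest regional differences, both with a lower signal in the superior piece of each of the 3 pools. The brighter Tfap2a probe set also had a lower signal in the superior piece of each pool, by a smaller amount. Pax3 ran in different directions in different pools, and the tested Sox10 probe set had a signal at least as high in the superior as in the inferior piece of each pool. The unadjusted p of the paired fit, limma with the pool number as a block, lay under 0.05 for 2 of the 6 tested member probe sets, both lower in superior. Over all tested probe sets that share was 11.0%, and 6.00% in the lower direction alone.

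Among the receptors, Erbb3 binds neuregulins, has little kinase activity of its own and signals as a partner of Erbb2. It is used by migrating crest and Schwann cell precursors, and also by the mesenchyme of the heart cushions. Its probe set 1434606_at had signals of 383.9, 506.0 and 309.9 in superior pools 1, 6 and 7, against 626.1, 702.8 and 412.8 in inferior pools 1, 6 and 7. The regions overlapped across pools, but within every pool the superior value was the lower one, and pool 7 was lowest in either region. The signal averaged 399.9 ± 99.0 in superior and 580.6 ± 150.3 in inferior pools (SD, n = 3 each). The ratio of these means was 0.689, and the difference of log2(signal + 3.2), the scale of all log2 differences here, was -0.53, with -0.70, -0.47 and -0.41 in pools 1, 6 and 7.

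Without pairing, the 95% interval of this Erbb3 difference ran from -1.09 to 0.04 (limma, adjusted p = 1.00). With the pool number as a block it ran from -0.74 to -0.31 (SE 0.10, unadjusted p = 0.000436, adjusted p = 0.111), and Erbb3 held place 88 among the 22518 tested probe sets by p. The paired adjusted p was 0.0420 without pool 6 and 0.0329 without pool 7, which are past the threshold, and 0.937 without pool 1. Pool 1, with the largest Erbb3 difference, is also the pool whose Gapdh 5′ to 3′ ratios were low and differed between the regions. Its actin ratios were nearly equal, at 0.449 in superior and 0.443 in inferior. In pools 6 and 7 the superior actin ratio was the lower one. The part of RNA integrity in the Erbb3 values was not tested. The paired fit leaves 2 residual degrees of freedom, or 1 without a pool, and takes much of its variance from other probe sets. The other Erbb3 probe set, 1452482_at, was under background on every array, with signals of 0.8 to 2.3 in superior and 0.7 to 2.6 in inferior pools.

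Ngfr encodes the p75 neurotrophin receptor, long used as a surface marker of crest cells. Its probe set 1454903_at had signals of 27.4, 18.0 and 13.9 in superior pools 1, 6 and 7, against 36.8, 32.6 and 37.2 in inferior pools 1, 6 and 7. Every superior value lay below every inferior value, and the superior values were the more scattered. The signal averaged 19.8 ± 6.92 in superior and 35.5 ± 2.55 in inferior pools (SD, n = 3 each). The ratio of these means was 0.556, and the log2 difference was -0.79, with -0.39, -0.76 and -1.24 in pools 1, 6 and 7.

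Ngfr had the smallest unpaired p of the members (limma, unadjusted p = 0.0132, adjusted p = 1.00), with a 95% interval of -1.37 to -0.22. The paired fit gave an interval of -1.27 to -0.32 (SE 0.21, unadjusted p = 0.00436, adjusted p = 0.267). The other Ngfr probe sets, 1450177_at and 1421241_at, had signals of 0.7 to 4.5 in superior and 0.3 to 5.1 in inferior pools and so give no reading of the region.

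Ret encodes the receptor tyrosine kinase for GDNF family ligands, which enteric and autonomic precursors need. Its probe set 1421359_at had signals of 5.2, 7.3 and 5.8 in superior pools 1, 6 and 7, against 1.3, 3.6 and 4.1 in inferior pools 1, 6 and 7. These values do not overlap between regions, but all are under the background level, and the probe set was not tested. The other Ret probe set, 1436359_at, ran from 0.4 to 2.0 in superior and from 0.6 to 5.5 in inferior pools. Ret was therefore not detectable above background in either region with these probe sets.

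Among the transcription factors, Tfap2a (AP-2 alpha) takes part in crest induction, is also made by surface ectoderm, and is needed in the mouse for a normal outflow tract. Its probe set 1421996_at had signals of 35.6, 37.2 and 34.7 in superior pools 1, 6 and 7, against 42.9, 39.6 and 57.5 in inferior pools 1, 6 and 7. Every superior value lay below every inferior one, though the gap in pool 6 was small, and the inferior 7 array was the highest. The signal averaged 35.8 ± 1.27 in superior and 46.7 ± 9.53 in inferior pools (SD, n = 3 each). The log2 difference was -0.34, with -0.25, -0.08 and -0.68 in pools 1, 6 and 7 and a paired 95% interval of -0.72 to 0.05 (adjusted p = 0.506, and 1.00 unpaired). Without the inferior 7 array the difference was -0.19 (adjusted p = 1.00).

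The Tfap2a probe set 1426048_s_at, whose suffix marks probes that can match more than 1 transcript or gene, had signals of 18.4, 15.4 and 23.0 in superior pools 1, 6 and 7, against 15.3, 23.3 and 33.3 in inferior pools 1, 6 and 7. The regions overlapped, and the order turned in pool 1, where the superior value was the higher one. Its log2 difference of -0.26 had a paired 95% interval of -0.75 to 0.24 (adjusted p = 0.703, and 1.00 unpaired), and it was -0.01 without the inferior 7 array. The third Tfap2a probe set, 1421995_at, exceeded background on 1 array, with signals of 0.8 to 5.2 in superior and 0.5 to 8.1 in inferior pools. Tfap2b (AP-2 beta), whose human mutations cause Char syndrome with a patent ductus arteriosus, had signals of 0.3 to 3.4 in superior and 0.4 to 6.5 in inferior pools over its 2 probe sets. Foxd3, a forkhead factor that is among the first crest specifiers, had signals of 0.7, 1.2 and 1.5 in superior pools 1, 6 and 7, against 0.2, 1.6 and 1.4 in inferior pools 1, 6 and 7.

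Sequences around the annotated start sites are shown for Ngfr and Tfap2a, the genes with a tested probe set whose superior signals all lay below the inferior ones. They run from 250 bases before to 50 bases after the start, on the minus strand of GRCm38.p6, and are credited to RefSeq, whose table held such a window for 4 of the 8 genes. The Ngfr window is at chr11:95587649-95587948, and the 2 Tfap2a windows, for separate starts, are at chr13:40734871-40735170 and chr13:40733746-40734045. Capitals mark GC boxes, the letters GGGCGG on either strand.
Ngfr: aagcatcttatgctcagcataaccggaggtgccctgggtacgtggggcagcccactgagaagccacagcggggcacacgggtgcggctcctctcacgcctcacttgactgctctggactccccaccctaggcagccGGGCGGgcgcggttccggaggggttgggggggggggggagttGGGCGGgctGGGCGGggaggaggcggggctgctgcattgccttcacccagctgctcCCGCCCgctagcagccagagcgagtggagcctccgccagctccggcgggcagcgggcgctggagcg
Tfap2a, start 1: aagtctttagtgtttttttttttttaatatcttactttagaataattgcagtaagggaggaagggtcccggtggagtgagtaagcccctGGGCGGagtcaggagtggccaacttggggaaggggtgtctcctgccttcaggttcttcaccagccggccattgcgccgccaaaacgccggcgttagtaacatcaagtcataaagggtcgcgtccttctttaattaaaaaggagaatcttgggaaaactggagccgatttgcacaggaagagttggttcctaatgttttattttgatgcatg
Tfap2a, start 2: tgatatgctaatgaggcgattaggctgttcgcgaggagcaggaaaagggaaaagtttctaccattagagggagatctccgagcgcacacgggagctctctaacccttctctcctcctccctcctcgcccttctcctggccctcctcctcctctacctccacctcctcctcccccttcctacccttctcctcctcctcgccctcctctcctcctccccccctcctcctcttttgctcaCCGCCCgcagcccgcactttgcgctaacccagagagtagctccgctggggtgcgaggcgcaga
The Ngfr window held 4 GC boxes and each Tfap2a window 1, and 35.7% of 32851 promoter windows of this length held at least 1. None of the 3 windows held the AP-2 letters GCCNNNGGC, which 16.6% of windows held, or the SOX letters ACAANG, which 41.2% held, on either strand. The AP-2 and SOX letters were searched first, and the GC box was added after neither was found in these windows. These searches describe the letters only.

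Sox10, an SRY-related factor of migrating crest and glia, was read by 2 probe sets near the limit of detection, and they ran in opposite directions. Probe set 1424985_a_at had signals of 18.8, 19.7 and 21.8 in superior pools 1, 6 and 7, against 12.1, 19.6 and 15.9 in inferior pools 1, 6 and 7. The inferior 6 value lay within the superior range, so the regions overlapped. The signal averaged 20.1 ± 1.54 in superior and 15.9 ± 3.75 in inferior pools (SD, n = 3 each), a log2 difference of 0.31 with a paired 95% interval of -0.17 to 0.78 (adjusted p = 0.626, and 1.00 unpaired).

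Probe set 1451689_a_at of Sox10, which was too dim to be tested, had signals of 6.2, 12.3 and 18.5 in superior pools 1, 6 and 7, against 22.8, 11.8 and 16.8 in inferior pools 1, 6 and 7. Its log2 difference of -0.43 came from pool 1, where it was -1.47, while pools 6 and 7 gave 0.05 and 0.12. The third Sox10 probe set, 1425369_a_at, was under background on all arrays, with signals of 0.5 to 2.2 in superior and 0.5 to 0.7 in inferior pools. No direction for Sox10 can be read from these probe sets.

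Pax3 is a paired-box factor of the dorsal neural tube, of early crest and of the somites, and mouse mutants in it fail to divide the outflow tract. Its signal differed more between pools than between regions. Probe set 1420389_at had signals of 7.9, 15.0 and 26.8 in superior pools 1, 6 and 7, against 7.3, 11.0 and 45.8 in inferior pools 1, 6 and 7. Both pieces of pool 7 were the highest and both pieces of pool 1 lay under background. The log2 difference of -0.09 was made of 0.08, 0.36 and -0.71 in pools 1, 6 and 7, with an unpaired 95% interval of -1.54 to 1.36 and a paired one of -0.67 to 0.49 (adjusted p = 1.00 and 0.931).

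Without the inferior 7 array the Pax3 difference turned to 0.58 (limma, adjusted p = 1.00). The other Pax3 probe sets, too dim to be tested, were also highest on the inferior 7 array. Probe set 1430335_a_at had signals of 2.2, 2.6 and 10.4 in superior pools 1, 6 and 7, against 6.8, 0.6 and 24.9 in inferior pools 1, 6 and 7. Probe set 1441743_at had signals of 0.6, 0.5 and 4.1 in superior pools 1, 6 and 7, against 0.3, 4.5 and 24.9 in inferior pools 1, 6 and 7. All 3 Pax3 probe sets thus had their highest value on the same array.

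The inferior 7 array also held the highest signals of several markers of other tissues. This array had the highest median signal of the 6 (17.6), and 20.4% of all tested probe sets were highest on it. Among 5 markers of somite and skeletal muscle precursors, 3 were highest there, all 3 too dim to be tested. Myf5, a myogenic factor, had signals of 1.7, 4.3 and 13.5 in superior pools 1, 6 and 7, against 3.5, 3.7 and 29.5 in inferior pools 1, 6 and 7. Lbx1, a homeobox gene of migrating muscle precursors, had 4.7, 8.0 and 11.1 in superior pools 1, 6 and 7, against 2.6, 1.8 and 29.5 in inferior pools 1, 6 and 7. Myf5 and Lbx1 thus stood above background in both pieces of pool 7, as Pax3 probe set 1420389_at did. That Pax3 probe set was also above background in both pieces of pool 6 (15.0 and 11.0), where Myf5 and Lbx1 were not. Myod1 had 5.1, 1.2 and 8.7 in superior pools 1, 6 and 7, against 1.3, 10.2 and 18.1 in inferior pools 1, 6 and 7.

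Pax7 reached 9.3 on the superior 6 array and was 3.4 or below in all inferior pools. Meox1, a homeobox gene listed here for its use in somites, was the one marker of this list bright enough to be tested. It was above background on all 6 arrays and did not follow Myf5, Lbx1 and Myod1, so its signal cannot be assigned to somite cells. It had signals of 326.4, 408.4 and 220.4 in superior pools 1, 6 and 7, against 470.9, 546.7 and 312.8 in inferior pools 1, 6 and 7, so that inferior 7 was the lowest inferior array. Its superior value was the lower one in each pool, as for Erbb3, with a log2 difference of -0.48 (limma, paired unadjusted p = 0.000524, adjusted p = 0.122, and 1.00 unpaired), and it held place 95 by paired p. How the Meox1 and Erbb3 differences relate was not tested. The list's summed signal, most of it from Meox1, ran from 254.8 to 431.2 in superior and from 393.3 to 562.8 in inferior pools, and was lowest among the inferior arrays on inferior 7.

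Of 7 epithelial markers, 4 were highest on the inferior 7 array, against 20.4% of all tested probe sets. These were the adhesion genes Epcam and Cdh1 and the keratin genes Krt8 and Krt18. For Krt8 the order was nearly a tie, with 734.0 on the superior 7 and 740.4 on the inferior 7 array. Krt5, a keratin of basal cells, was instead lowest on the inferior 7 array. Foxa2, a factor of endoderm, was lowest there too, but it exceeded background only on the superior 6 array, so its order gives no reading. Krt5 had 14.7, 16.2 and 11.7 in superior pools 1, 6 and 7, against 11.3, 14.0 and 10.2 in inferior pools 1, 6 and 7. Foxa2 had 2.6, 8.1 and 3.7 in superior pools 1, 6 and 7, against 0.8, 5.4 and 0.4 in inferior pools 1, 6 and 7. Trp63 was highest on the inferior 1 array. Epcam had signals of 26.4, 25.5 and 21.2 in superior pools 1, 6 and 7, against 27.0, 14.2 and 67.0 in inferior pools 1, 6 and 7. Cdh1 had 17.1, 30.0 and 15.4 in superior pools 1, 6 and 7, against 11.0, 12.9 and 46.7 in inferior pools 1, 6 and 7. For both, the inferior 7 value stood far above the other inferior values. The summed signal of the list, most of it from Krt8 and Krt18, ran from 1136.5 to 1333.2 in superior and from 954.6 to 1437.2 in inferior pools. Only Epcam, Cdh1, Krt8 and Krt18 of the epithelial markers were bright enough to be tested, and none of these 4 passed in either fit.

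The inferior 7 array held the highest signal for 4 of the 6 tested member probe sets, namely both of Tfap2a and those of Pax3 and Ngfr, and for 20.4% of all tested probe sets. For Ngfr its value of 37.2 was close to the 36.8 of the inferior 1 array. The part of these muscle precursor and epithelial markers in the Pax3 and Tfap2a values was not tested. Without the inferior 7 array the differences of Erbb3 and Ngfr were -0.75 and -0.76 (adjusted p = 1.00 for both, limma without pairing).

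**Figure D2:**
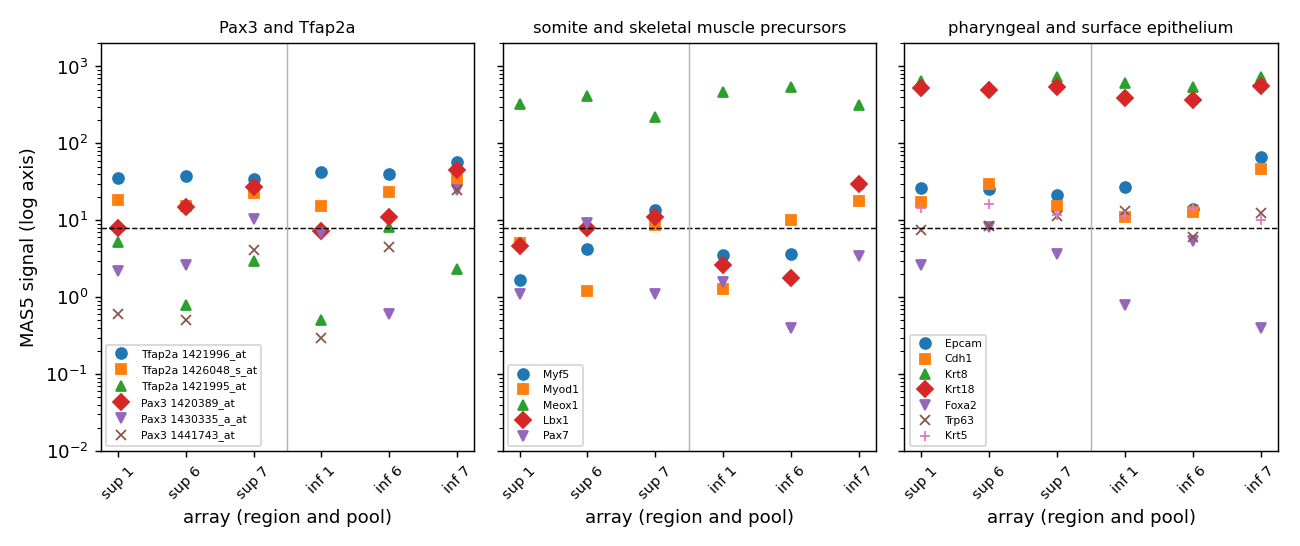
MAS5 signals (log axis) on each of the 6 arrays for the Tfap2a and Pax3 probe sets that exceed background on any array (left), the somite and skeletal muscle precursor markers (centre) and the epithelial markers (right). The rightmost array, inferior pool 7, has the highest Pax3, Myf5, Myod1, Lbx1, Epcam and Cdh1 signals. It has the lowest Krt5 signal and the lowest inferior Meox1 signal. Foxa2 is also lowest there but exceeds background only on superior 6.

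Markers of the neural tube, from which crest arises, were low. Of 5 such genes none was bright enough to be tested, and Sox1, Olig2 and Neurog2 were under background on every array. Pax6 was above background on every array, with signals of 17.3, 11.6 and 19.3 in superior pools 1, 6 and 7, against 9.2, 11.8 and 24.7 in inferior pools 1, 6 and 7, and so was also highest on inferior 7. Sox2 had 12.6, 21.7 and 20.6 in superior pools 1, 6 and 7, against 14.3, 7.8 and 6.7 in inferior pools 1, 6 and 7, above background on all superior arrays and 1 inferior array. The summed signal of the 5 ran from 34.0 to 42.0 in superior and from 25.2 to 36.7 in inferior pools. The summed signal of 5 cardiac muscle genes ran from 23063.2 to 29083.1 in superior and from 21184.1 to 21951.9 in inferior pools. That of 5 epicardial genes ran from 671.2 to 1207.8 in superior and from 311.0 to 522.1 in inferior pools. In neither list did the summed signals of the regions overlap. Gene by gene, every superior signal lay above every inferior one for all 5 epicardial genes and for Tnnt2 and Myl7. That held for 4.65% of all tested probe sets. Myh6, Myh7 and Actc1 overlapped between the regions. All 5 genes of each list had a positive log2 difference. Of these, 4 epicardial ones passed the paired test and no muscle gene passed in either fit. No gene of either list was at 0 on any array. The part of this in the lower superior signals of Erbb3 and Ngfr was not tested. Endothelial genes, with sums of 1324.1 to 1800.6 in superior and 1404.3 to 1598.0 in inferior pools, and red blood cell genes, with 13891.1 to 22652.0 in superior and 12508.2 to 15696.6 in inferior pools, overlapped between the regions.

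**Figure D3:**
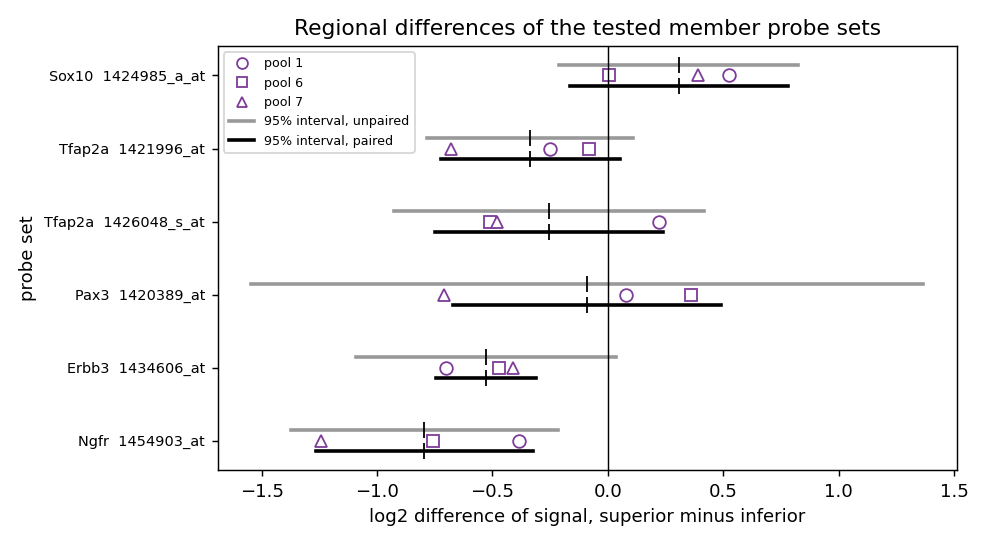
Log2 difference of signal (superior minus inferior) of the 6 tested member probe sets, with open symbols for the 3 pools, ticks for the mean, and bars for the 95% intervals of the unpaired (grey) and paired (black) limma fits. Only the Ngfr bars and the paired Erbb3 bar stay left of zero, and their adjusted p-values lie above 0.05.

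Counted over the members, the superior signal was the lower one in all 3 pools for 3 of the 6 tested probe sets (Erbb3, Ngfr and Tfap2a 1421996_at), where the share over all tested probe sets was 19.0%. For 2 of the 6, Ngfr and Tfap2a 1421996_at, every superior signal lay below every inferior one, against 4.56% of all tested probe sets. With the brightest tested probe set of each gene, 4 of 5 genes had a negative log2 difference and the median was -0.34, against a median of -0.02 and a negative difference in 55.1% of all tested probe sets. The tested Sox10 probe set was the exception. For the untested Sox10 probe set 1451689_a_at the difference was -0.43, which came from pool 1 (-1.47), while pools 6 and 7 gave 0.05 and 0.12. Without the inferior 7 array the Pax3 difference turned positive as well. That left 3 of 5 genes negative with a median of -0.19, against -0.01 and 51.9% over all tested probe sets. Without the superior 1 array 3 of 5 were negative as well, with a median of -0.33. The 3 members under background are not in these counts.

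Genes that act with the members were read from 7 lists of 65 genes, of which 58 were analysed here and 31 were tested, with the brightest probe set for each gene. None passed the test in either fit, and 20 of the 31 had a negative log2 difference, where the share over all tested probe sets was 55.1%.

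Of 14 further crest genes, 9 were tested and 8 of these had a negative difference, with a median of -0.20. Over all tested probe sets the share was 55.1% and the median -0.02. Sox9, which acts in crest and in cushion mesenchyme, had signals of 335.2, 412.3 and 291.6 in superior pools 1, 6 and 7, against 418.4, 573.3 and 335.3 in inferior pools 1, 6 and 7. Its log2 difference was -0.33 (paired adjusted p = 0.318), and as for Erbb3 the superior value was the lower one in each pool. Ednrb, the endothelin receptor of crest cells, had a difference of -0.31 (0.433 by the same measure), and Ets1, a factor of cardiac crest and endothelium, one of -0.20 (0.477). Zic1 and Wnt1, genes of the dorsal neural tube, were under background on all arrays.

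Around Erbb3, 4 of 7 partners and ligands were tested, 2 with a negative and 2 with a positive difference, and the median was 0.00. Nrg1, the main ligand, had signals of 33.6, 40.2 and 22.7 in superior pools 1, 6 and 7, against 42.2, 55.1 and 26.1 in inferior pools 1, 6 and 7, so that it too was lower in the superior piece of each pool (log2 -0.30, paired adjusted p = 0.517). Erbb2, the co-receptor, had a difference of -0.04 (0.929) and Nrg2 one of 0.10 (0.890). Erbb4 and Nrg3 were under background on all arrays.

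Around Ngfr, 7 of the 8 measured ligands and partners were tested, 3 with a negative and 4 with a positive difference, and the median was 0.03. Bdnf, a neurotrophin, had signals of 55.1, 36.5 and 27.4 in superior pools 1, 6 and 7, against 78.3, 54.2 and 47.5 in inferior pools 1, 6 and 7 (log2 -0.58, paired adjusted p = 0.255). Ntrk3, the receptor of neurotrophin-3, had 26.9, 17.4 and 23.0 in superior pools 1, 6 and 7, against 27.4, 34.6 and 42.7 in inferior pools 1, 6 and 7 (log2 -0.57, paired adjusted p = 0.413). Both had the lower signal in the superior piece of each pool, as Ngfr did. Bex3, which encodes a protein that binds the p75 receptor, had a difference of 0.22 (0.457).

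Around Ret, 3 of 8 ligands and co-receptors were tested, with a median of -0.05, and Gfra2, the neurturin co-receptor, differed by -0.17 (paired adjusted p = 0.803), Nrtn, which encodes neurturin, by -0.05 (0.956) and Gfra4 by 0.00 (0.998). Of 9 measured genes of autonomic neurons 4 were tested, with a median of -0.03. Tubb3, a neuronal tubulin, had a difference of -0.36 (0.432), Stmn2, another neuronal cytoskeleton gene, 0.21 (0.606), and Hand2, a factor of sympathetic neurons that the heart also uses, -0.03 (0.930). Th and Dbh, enzymes of noradrenaline synthesis, were too dim to be tested.

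Of 7 measured glial genes 2 were tested. Cdh19, a cadherin of Schwann cell precursors, had signals of 36.2, 58.8 and 29.8 in superior pools 1, 6 and 7, against 71.4, 70.8 and 36.0 in inferior pools 1, 6 and 7 (log2 -0.47, paired adjusted p = 0.412). Its superior value was the lower one in each pool, while Mbp, a myelin gene, had a difference of 0.18 (0.757). S100b and Gfap, genes of mature glia, were under background on all arrays. Of 5 melanoblast genes 2 were tested, Mitf with a difference of -0.03 (0.933) and Kit with 0.24 (0.645), while Dct and Tyrp1 were under background on all arrays.

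**Figure D4:**
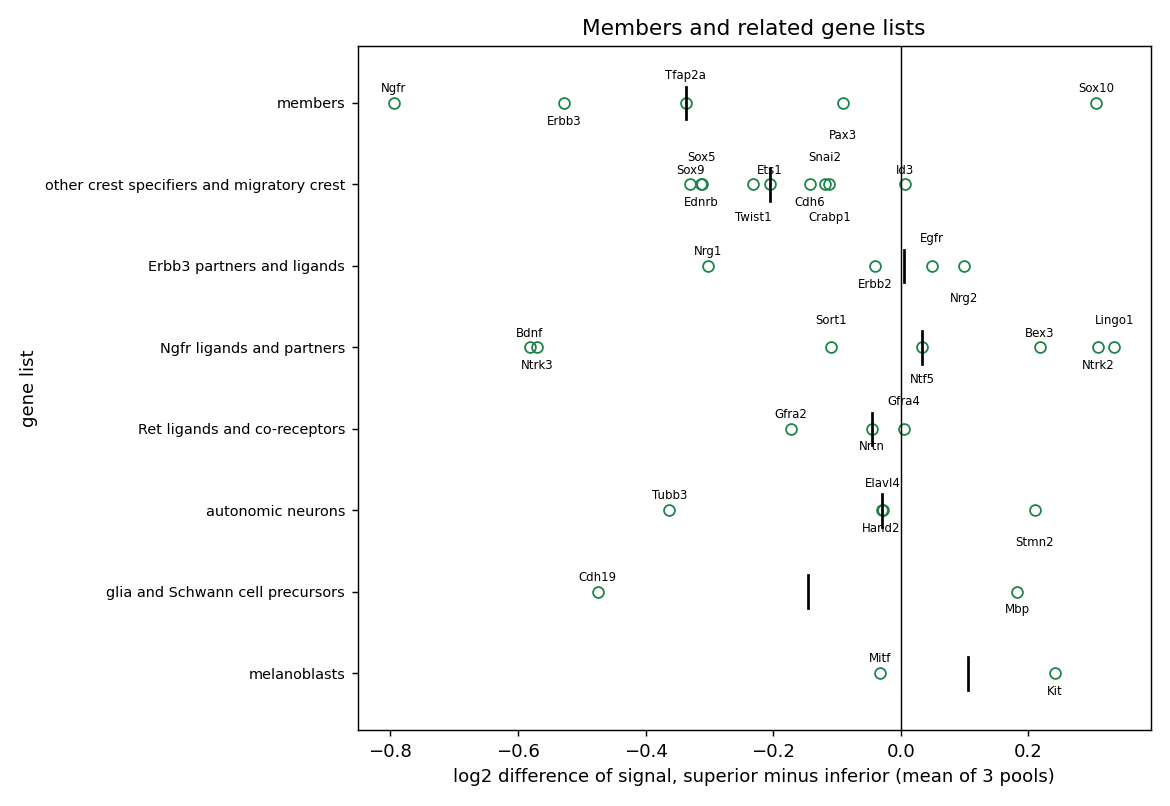
Log2 difference of signal (superior minus inferior, mean of 3 pools) of the members and of the 7 lists of related genes, each point being the brightest tested probe set of a gene and each vertical bar the median of a list. Of the list medians, those of the members (-0.34) and of the further crest genes (-0.20) lie farthest to the left.

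Among 11194 other tested genes, those with the signal pattern most like a member's over the 6 arrays were found by Pearson's r of the log2 values, given as a description because the best of so many genes will always correlate highly. They were Cct4, Mmp2 and Foxp1 for Erbb3 (r of 0.998, 0.994 and 0.988 over 6 arrays) and Etnk1, Chst1 and Zdhhc14 for Ngfr (0.997, 0.986 and 0.982). For Tfap2a they were Tmem69, Zfp790 and Plekhh1, and for Sox10 Man1a2, Zfp930 and Jak1. For Pax3 they were Dnajc2, 4632415L05Rik and Rab15, and r for these members lay between 0.983 and 0.996. Pearson's r takes no account of the size of a difference. Over the 6 arrays Foxp1 ran only from 457.2 to 507.0, and the dim Cct4 probe set from 10.6 to 21.6.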

How the data were processed

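The deposited table holds intensity signals on a linear scale. The authors computed them with MAS5, as named in the submitters' processing notes, where no version is given. MAS5 takes a mismatch signal off each probe set and scales each array, here to a mean of 100 after trimming 2% at either end, so dim probe sets are noisy and a signal is relative to its array. The number of arrays limits the precision.

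Gene names came from the platform annotation. Signals became log2(signal + 3.2), 3.2 being the 25th percentile of all signals, and log2 differences of dim genes are understated on this scale. The 22518 probe sets above the median were tested with limma 3.58.1 in R 4.3.3 (trend and robust variance, Benjamini-Hochberg adjustment), and the scripts were tested on simulated data. The fit has no term for the pool. Same-numbered arrays deviated together (correlations of 0.79, 0.43 and 0.51 for pools 1, 6 and 7, all above the limit of 0.1), so a paired fit that includes the pool number as a block stands beside it. Unlike-numbered arrays of pools 6 and 7 also passed that limit (0.18 and 0.20), and the labels do not state a pairing. Standard errors are limma's.

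The members, lists and tests were chosen with earlier results of these data known. Genes named from a list are those called in either fit, then those of smallest paired p, up to 3 a list, and any other listed gene was named after its values were seen.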

Additional observations from a re-analysis of the deposited data

How the results depend on the processing

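Without the pool number, 0 of 22518 probe sets were called by limma (792 at an unadjusted p under 0.05), and 0 also with an offset of 1 or 16, without the dim filter, under quantile or 75th percentile scaling, without trend and robust variance, and without any single array. With the pool number as a replicate block the count was 36. It was 9, 231 and 116 in the block fit without pools 1, 6 and 7, so between 9 and 231. Block fits combined with another choice, added after the data were seen, called 22 (offset of 1), 1 (no dim filter), 37 (quantile), 38 (75th percentile) and 0 (no trend or robust variance). The count of member probe sets called was 0 in all these settings except the block fits without pool 6 and without pool 7, where Erbb3 made it 1, so it ranged from 0 to 1. No block fit of all 6 arrays called a member.

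Of 21 alternatives, those that only add the pool block, change the variance choices or drop the dim filter cannot change a log2 difference. Over all 21, the differences of Erbb3 (-0.75 to -0.36) and Ngfr (-1.02 to -0.54) kept their direction. So did those of the tested Sox10 probe set (0.16 to 0.46) and both Tfap2a probe sets (-0.46 to -0.17, and -0.50 to -0.01). That of Pax3, -0.09, ranged from -0.53 without the inferior 1 array and turned positive without the superior 1 array (0.27), without the inferior 7 array (0.58) and in the block fit without pool 7 (0.22). The cause was not tested. Foxd3, Tfap2b and Ret are limited by signal over background.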
